A study of Mus musculus with 88 samples.

Results

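The expression of 6 genes that hold back cell death, Bcl2, Bcl2l1, Mcl1, Birc2, Birc3 and Xiap, was followed in 6 tissues of mice 24 h after partial body irradiation. They were chosen by name, with the older symbol Birc4 for Xiap included, and their probes were 19 of the 25697 on the array, which stand for 6 of 16593 genes with an identifier. Bcl2 had 8 probes, Bcl2l1, Birc2 and Xiap had 3 each, and Mcl1 and Birc3 had 1 each. RNA from the thyroid, spleen, lungs, liver, and the cortex and medulla of the kidney was hybridized to Illumina mouse arrays with 1 colour, and a probe was tested in a tissue when it was detected (detection p under 0.01) on at least 3 arrays of that tissue. Each probe is shown apart, since signals of different probes cannot be set against each other.

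All 14 animals were females of the strain CAnN.Cg-Foxn1nu/Crl, BALB/c nude mice aged 4 months. Group A (3 mice) received a single dose of 2 Gy of photons to the thyroid region, labelled collum, group B (3 mice) to thorax and abdomen, and group C (3 mice) to collum, thorax and abdomen together. The sham control mice (5 animals) were anesthetized but not irradiated. All 14 mice carried the nude mutation of Foxn1, which leaves animals without a functional thymus, so that every spleen came from a host short of T cells, and all were of 1 sex and 1 strain. Kidneys, liver, lungs and spleen lay outside the field in group A, and the thyroid lay outside it in group B.

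The products of Bcl2, Bcl2l1 (Bcl-xL) and Mcl1 sit on the outer mitochondrial membrane, where they bind the death effectors Bax and Bak and the BH3-only proteins that would set them free, and so keep cytochrome c inside the mitochondrion. The inhibitors of apoptosis act downstream or beside this step. Xiap binds active caspases directly, while Birc2 (cIAP1) and Birc3 (cIAP2) are ubiquitin ligases that sit with Traf2 in tumour necrosis factor receptor complexes and steer these towards NF-kappaB and away from death. Mcl1 is a short-lived protein, and radiation is a classical trigger of the mitochondrial route through p53.

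The promoters of Bcl2 and Birc2 are shown because these were the members with a probe past the threshold after irradiation. They are RefSeq windows (GRCm38.p6) of 300 bases, 250 before and 50 after the annotated start, on the minus strand at chr1:106714241-106714540 for Bcl2 and at chr9:7837008-7837307 for Birc2, the first of the Birc2 windows. Capitals mark the letters TGACGT in the Bcl2 window and TGACGTCA in the Birc2 window, the core and the whole of the cyclic AMP response element.
Bcl2 promoter: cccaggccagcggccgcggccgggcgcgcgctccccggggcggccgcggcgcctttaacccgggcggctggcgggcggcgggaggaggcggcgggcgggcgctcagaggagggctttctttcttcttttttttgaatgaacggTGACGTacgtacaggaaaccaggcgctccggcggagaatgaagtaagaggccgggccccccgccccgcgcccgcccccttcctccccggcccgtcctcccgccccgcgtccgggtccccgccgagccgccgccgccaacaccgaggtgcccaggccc
Birc2 promoter: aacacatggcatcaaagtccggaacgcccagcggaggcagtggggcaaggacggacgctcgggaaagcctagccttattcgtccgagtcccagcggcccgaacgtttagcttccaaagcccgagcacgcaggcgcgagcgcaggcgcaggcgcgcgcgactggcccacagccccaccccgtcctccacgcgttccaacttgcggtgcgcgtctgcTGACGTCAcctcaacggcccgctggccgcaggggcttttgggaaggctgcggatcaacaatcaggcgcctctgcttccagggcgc
The Bcl2 match began 107 bases before the start and the Birc2 match 35 bases before it, and GC content was 76% and 67%. Over 32851 windows of the same length, TGACGT was found on either strand in 7.51% and the palindrome TGACGTCA, which holds it, in 1.79%. All 6 genes matched, with 11 windows. Among the other member windows TGACGT was found in 1 of Xiap, the NF-kappaB consensus (4.51% of all windows) in 1 of Bcl2l1, and the p53 half-site consensus (8.36%) in the second Birc2 window, while those of Mcl1 and Birc3 held none of the 4 motifs. The motifs were chosen after the sequences had been read, and a match is a description of letters. The Birc2 and Birc3 windows lie 35.8 kb apart on chromosome 9.

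Of the 19 probes, 14 were tested in at least 1 tissue, which gave 63 of 114 possible pairs of probe and tissue. Spleen had 14 tested probes, kidney medulla and lungs 12 each, kidney cortex 11, thyroid 10 and liver 4. Xiap could not be followed: its probes ILMN_2961304 and ILMN_2739651 were detected on 0 of 88 arrays and ILMN_1221270 on 1 lung array, with deposited signals of 74.2 to 147.1 where the lowest detected signal of an array was 103 to 165.7. The Bcl2 probes ILMN_1243345 and ILMN_2597272 were also detected on 0 of 88 arrays. Birc3 was tested in lungs and spleen, with 13 arrays detected in each. In liver no Bcl2 probe passed, and the tested probes there were ILMN_2698430 of Bcl2l1, Mcl1, and ILMN_2990616 and ILMN_1226186 of Birc2.

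On each array 33.17% to 50.28% of all probes were detected, and the number of arrays limits the precision. Several samples stood apart in markers of tissue composition. Most thyroid samples went against their label. Their summed signal of thyroid follicle markers (Tg, Pax8 and Nkx2-1 were detected, while Tshr and Slc5a5 were not) was 24990, 66.3 and 126.7 (group A), 93.1, 71.1 and 263.2 (group B), 69.3, 378.4 and 18420 (group C) and 5339, 69.8, 67.1, 22540 and 73.5 in sham mice. Skeletal muscle markers summed to 111800 to 119200 in sham thyroid samples, and group A replicate 2 had 146.6 for muscle and 143500 for salivary gland markers. In kidney medulla, group C replicate 2 had a proximal tubule sum of 26050, against 49960 and 49040 in the others of group C and 40000 to 55110 in sham mice. In spleen, group C replicate 1 had a B lymphocyte sum of 3120, against 10790 to 21970 in sham mice.

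Kidney medulla was the tissue in which member probes passed the threshold. A single probe of Bcl2 and a single probe of Birc2 rose in all 3 irradiation setups, including group A, whose kidneys were out of field. Of 189 tests of member probes against sham mice, 6 passed the threshold of an adjusted p under 0.01 (limma, Benjamini-Hochberg over all probes tested in the tissue) with a log2 ratio of at least 0.58, all 6 of them higher and in medulla. Over all probes 0.194% of 218022 such tests passed. In medulla, 2 of 12 member probes were called in each setup, where the share of all probes called was 1.39% in group A, 1.78% in group B and 0.13% in group C.

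Bcl2 probe ILMN_1249021, annotated to the transcript NM_009741, had medulla log2 signals of 8.30, 7.98 and 8.01 (group A), 8.26, 8.50 and 8.35 (group B) and 8.18, 8.35 and 8.07 (group C), against 7.31, 7.51, 7.21, 7.32 and 7.38 in sham mice. All 9 irradiated mice lay above all 5 sham mice, with no overlap. The log2 ratio to sham was 0.75 ± 0.12 for group A (SE, limma adjusted p = 0.00391), 1.02 ± 0.12 for group B (adjusted p = 0.000941) and 0.85 ± 0.12 for group C (adjusted p = 0.00906), which are 1.68-fold, 2.03-fold and 1.80-fold. The irradiation setups differed from each other by 0.27 (B minus A), 0.10 (C minus A) and -0.17 (C minus B), none past the threshold.

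None of the other tested Bcl2 probes was called. ILMN_1249366, annotated to the same transcript, had 6.67, 6.52 and 6.88 in mice of group A, 6.81, 7.11 and 6.78 in mice of group B and 7.50, 7.05 and 7.33 in mice of group C, against 7.15, 6.82, 6.97, 7.13 and 7.18 in sham mice. The groups overlapped the sham range, and the ratios of -0.36 ± 0.14 in group A, -0.15 in group B and 0.24 in group C were not called. Its difference of group C minus group A, 0.60, had an unadjusted p of 0.00189 and an adjusted p of 0.397 in limma. In groups A, B and C, the ratios were -0.27, -0.23 and -0.09 for ILMN_2706514 and 0.11, -0.11 and 0.22 for ILMN_2682162. ILMN_1215796, annotated to NM_177410, was detected on 2 medulla arrays of group A and 1 of group C, with 5.94, 5.64 and 5.78 (group A), 4.86, 4.98 and 5.14 (group B) and 5.47, 6.30 and 4.64 (group C), against 4.84, 4.88, 4.72, 5.01 and 4.83 in sham mice. It passed the detection filter through the irradiated arrays and no sham array detected it. As the level a sham array could detect reached the group A mean, no fold and no test are given.

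Birc2 probe ILMN_1226186 had medulla log2 signals of 8.13, 8.04 and 8.07 in mice of group A, 7.63, 7.77 and 7.84 in mice of group B and 8.14, 8.24 and 7.49 in mice of group C, against 6.71, 7.04, 6.79, 6.68 and 7.12 in sham mice. Again all 9 irradiated mice lay above all 5 sham mice. The log2 ratio was 1.21 ± 0.17 for group A (SE, limma adjusted p = 0.00318), 0.88 ± 0.17 for group B (adjusted p = 0.00794) and 1.09 ± 0.17 for group C (adjusted p = 0.00976), which are 2.31-fold, 1.84-fold and 2.13-fold. Differences between setups were -0.33 (B minus A), -0.12 (C minus A) and 0.21 (C minus B), none past the threshold.

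The same transcript of Birc2, NM_007465, is read by a pair of further probes, and neither was called. ILMN_2990616 had 9.88, 9.73 and 9.57 (group A), 9.70, 9.65 and 9.81 (group B) and 9.90, 10.10 and 9.75 (group C), against 9.71, 10.01, 9.81, 10.05 and 9.87 in sham mice. These overlapped, with ratios of -0.17, -0.17 and 0.02, and ILMN_2741621 had -0.10, -0.19 and -0.08. Within a mouse group the ratio of the called probe thus exceeded that of ILMN_2990616 by 1.38 in group A, 1.05 in group B and 1.07 in group C, and for Bcl2 that of ILMN_1249021 exceeded that of ILMN_1249366 by 1.11, 1.17 and 0.61. These pairs of probes were chosen after their values were seen, so their differences are given with no test.

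**Figure D1:**
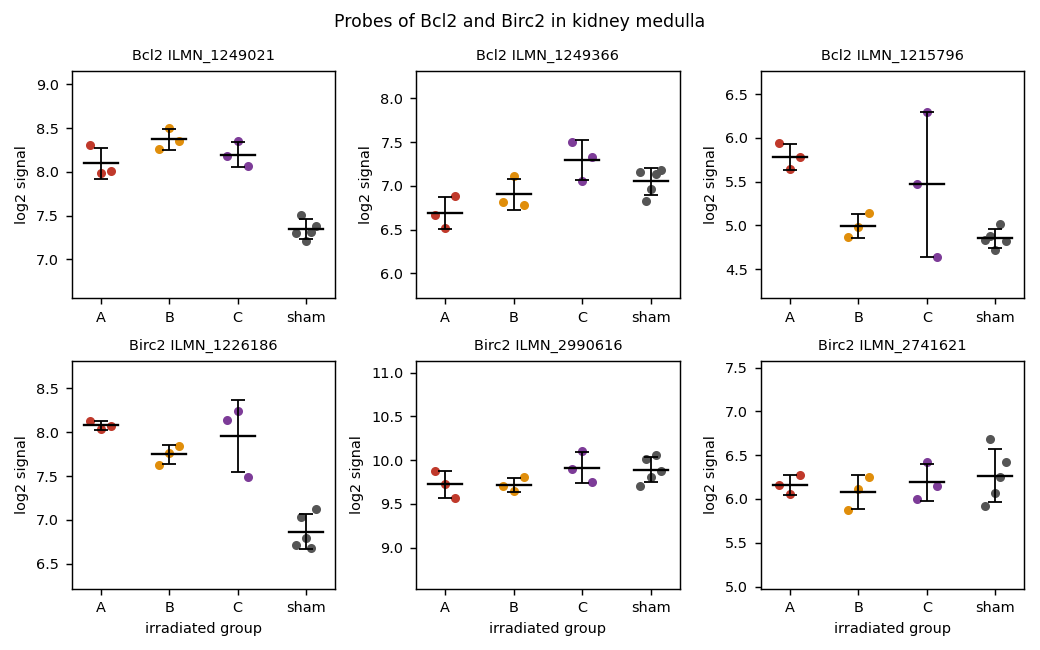
Log2 signal of 6 probes of Bcl2 (top) and Birc2 (bottom) in kidney medulla, by irradiated group (A, B, C, 3 mice each) and sham (5 mice). Points are mice, bars are the mean and SD. ILMN_1249021 and ILMN_1226186 show all 9 irradiated mice above all 5 sham mice, while the other probes of both genes overlap, except ILMN_1215796 in group A, which no sham array detected.

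Mcl1, read by ILMN_1216732, had medulla log2 signals of 11.44, 11.57 and 11.22 in mice of group A, 11.50, 11.52 and 11.36 in mice of group B and 11.54, 11.86 and 11.36 in mice of group C, against 10.88, 11.05, 11.23, 11.31 and 11.07 in sham mice. Groups B and C lay above all sham mice, and group A overlapped. The ratios of 0.30 ± 0.14, 0.35 ± 0.14 and 0.48 ± 0.14 did not pass, with limma adjusted p = 0.207 for group A, 0.149 for group B and 0.0638 for group C. Bcl2l1 probe ILMN_2647885 had 5.44, 5.97 and 5.34 (group A), 5.92, 5.77 and 5.60 (group B) and 5.83, 6.79 and 6.41 (group C), against 5.97, 6.13, 6.16, 6.0 and 5.77 in sham mice. All groups overlapped sham, and the difference of group C minus group A, 0.76 ± 0.22, had an adjusted p of 0.472 in limma. Across the 12 medulla member probes, 3 lay wholly above sham in each setup, where 11.4% of all probes did in group A, 11.5% in group B and 5.91% in group C. In group A 1 of these 3 was Bcl2 ILMN_1215796, which no sham array detected, so nothing is read from that count. The median member ratio was 0.10, -0.05 and 0.29 in groups A, B and C, beside -0.05, -0.05 and -0.02 over all probes.

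In these bulk samples fewer cells of a type and less RNA per cell cannot be told apart. All 6 proximal tubule markers were detected in medulla, with sums of 46870 to 51670 in group A, 45390 to 49320 in group B and 26050 to 49960 in group C, against 40000 to 55110 in sham mice. The 5 thick ascending limb markers summed to 59060 to 65190 in group A, 55590 to 65060 in group B and 53560 to 60230 in group C, against 49110 to 56600 in sham mice, so that group A lay above sham, and its part in the results was not tested. Without group C replicate 2 the group C ratios were 0.78 for Bcl2 ILMN_1249021 (limma adjusted p = 0.0295) and 0.95 for Birc2 ILMN_1226186 (adjusted p = 0.0439), which ended both of those calls and left 4. Both group C calls also ended in most other fits that left out 1 mouse, as did the group B call of Birc2, and leaving out any single mouse of group A left 1 call. With the authors' normalized values 2 of the 6 calls were left, those of Birc2 in group A and of Bcl2 in group B.

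The medulla response of Birc2 was set against the same irradiation elsewhere, on a scale normalized over all tissues. The 4 member probes detected in all non-thyroid tissues allowed 60 tests of the log2 ratio in 1 tissue minus the mean of the other 4 non-thyroid tissues, and 2 passed. Birc2 ILMN_1226186 in medulla exceeded the other tissues by 1.31 ± 0.24 in group A (SE, limma adjusted p = 0.000166) and by 1.19 ± 0.24 in group C (adjusted p = 0.00264), where 2.33% and 0.487% of 9037 probes passed. In group B the difference of 0.93 ± 0.24 missed the threshold (adjusted p = 0.0106, where 2.25% of probes passed). ILMN_2990616 of Birc2 gave -0.13, -0.16 and 0.16 in groups A, B and C. Mcl1 in medulla gave 0.43, 0.40 and 0.53 (limma adjusted p = 0.163, 0.254 and 0.108). The group C call of Birc2 ended without group C replicate 1, group C replicate 2 or sham replicate 3.

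**Figure D2:**
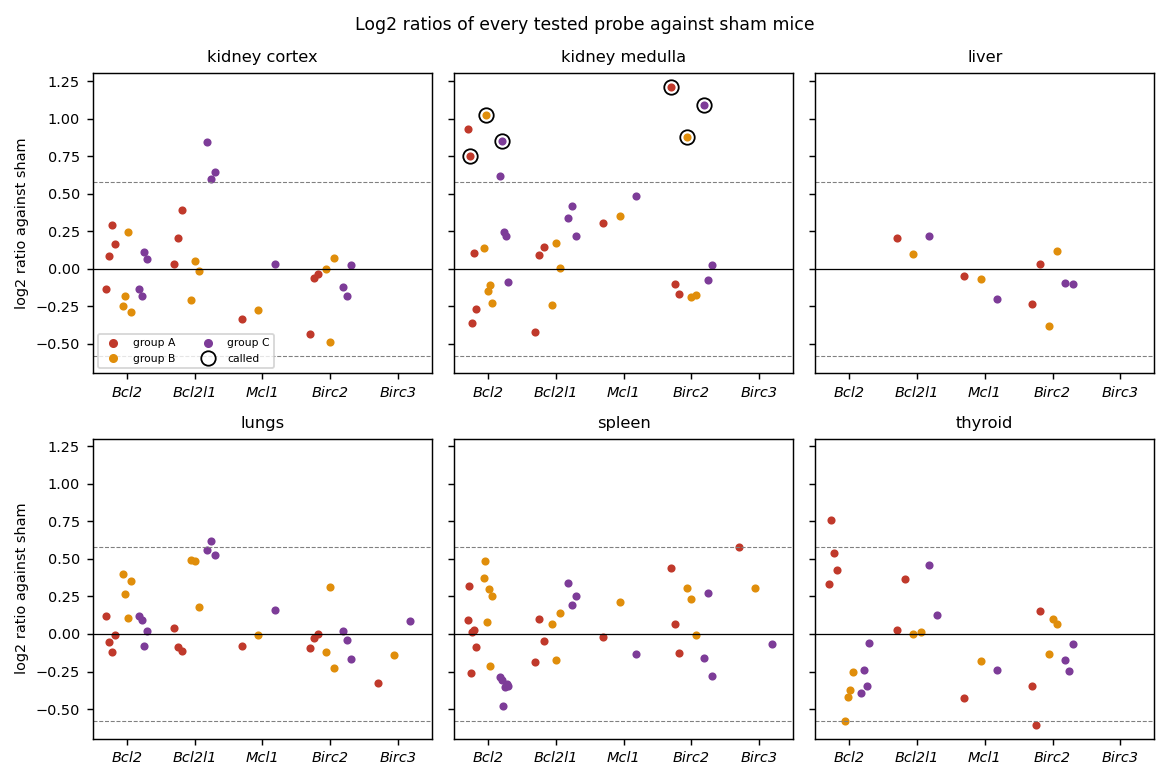
Log2 ratio to sham mice of every tested member probe (points) in 6 tissues, by gene and irradiated group (A, B, C). Circles mark the 6 calls, all in kidney medulla, and the dashed lines mark a log2 ratio of 0.58 in either direction. Some points above the line in other tissues, such as Bcl2l1 in kidney cortex of group C, did not pass the adjusted p. Bcl2 ILMN_1215796 in kidney medulla is drawn at its measured values, although no sham array detected it.

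Kidney cortex gave 0 calls among 11 member probes in each setup, where 0% of all probes were called. Bcl2l1 in group C, with the kidneys in the field, had its 3 probes above sham in every mouse. The cortex arrays of group C detected 46.83% to 47.58% of all probes, against 43.58% to 46.02% in sham mice. The part of this difference in the Bcl2l1 values was not tested. Of the 3 probes, ILMN_2647885 was detected on 2 of 5 sham arrays. ILMN_2742557 had 6.38, 6.22 and 6.20 in mice of group A, 5.65, 5.98 and 5.95 in mice of group B and 6.34, 6.31 and 6.90 in mice of group C, against 5.77, 5.76, 5.81, 6.10 and 5.92 in sham mice. Groups A (1 of 11 member probes, where 5.72% of all probes did so) and C lay above sham and group B overlapped it. The ratios were 0.39 ± 0.15 in group A, -0.01 in group B and 0.64 ± 0.15 in group C, with an unadjusted p of 0.000823 and an adjusted p of 0.371 in limma for group C. Its difference of group C minus group B, 0.66, had an adjusted p of 0.247.

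ILMN_2698430 of Bcl2l1 had cortex signals of 7.54, 7.51 and 7.93 (group A), 7.31, 7.81 and 7.40 (group B) and 7.81, 8.04 and 8.31 (group C), against 7.23, 7.62, 7.66, 7.26 and 7.52 in sham mice. ILMN_2647885 had 5.78, 4.99 and 6.04 in mice of group A, 5.06, 6.09 and 4.95 in mice of group B and 6.24, 6.42 and 6.61 in mice of group C, against 5.64, 5.89, 5.72, 5.55 and 5.08 in sham mice. In both, group C lay above all sham mice, and groups A and B overlapped. The group C ratios were 0.60 ± 0.17 and 0.84 ± 0.28, with adjusted p of 0.461 and 0.523 in limma. These 3 of 11 member probes of group C lay wholly above sham, where 2.76% of all probes did, and they read the same transcript, NM_009743, so they are not independent.

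Birc2 and Mcl1 in cortex showed smaller shifts that did not pass. Birc2 ILMN_2741621 had 5.98, 6.22 and 5.89 (group A), 5.26, 5.71 and 5.84 (group B) and 5.99, 5.76 and 5.99 (group C), against 6.39, 6.12, 5.83, 5.81 and 6.31 in sham mice. The groups overlapped, and group B had a ratio of -0.49 ± 0.17 (limma adjusted p = 0.279). Mcl1 had 11.30, 11.31 and 11.51 in mice of group A, 11.45, 11.41 and 11.43 in mice of group B and 11.63, 11.67 and 11.92 in mice of group C, against 11.43, 11.61, 11.74, 11.89 and 11.87 in sham mice. The groups overlapped here too, with -0.33 ± 0.13 in group A (adjusted p = 0.572).

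Lungs likewise gave 0 calls among 12 member probes in each setup, where 0%, 0.00749% and 0% of all probes were called in groups A, B and C. Bcl2l1 was the member with the lowest p, in the setups that had the lungs in the field. ILMN_2698430 had 7.97, 7.63 and 7.92 (group A), 8.31, 8.29 and 8.63 (group B) and 8.31, 8.77 and 8.56 (group C), against 7.60, 7.81, 8.21, 7.94 and 8.08 in sham mice. Groups B and C lay above all sham mice, and group A lay within their range. In each of groups B and C 2 of 12 member probes lay wholly above sham, where 2.88% and 2.31% of all probes did. Besides ILMN_2698430, this was Bcl2 ILMN_2706514 in group B (6.89 to 7.07, against 6.50 to 6.75 in sham mice) and Bcl2l1 ILMN_2742557 in group C. The ratios were -0.09 in group A, 0.48 ± 0.17 in group B and 0.62 ± 0.17 in group C, with adjusted p of 0.900 for group B and 0.604 for group C in limma, and group C exceeded group A by 0.71 (adjusted p = 0.686).

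ILMN_2742557 had lung signals of 5.23, 6.20 and 5.87 in mice of group A, 5.81, 6.27 and 6.10 in mice of group B and 6.41, 6.36 and 6.46 in mice of group C, against 5.99, 5.64, 6.06, 6.10 and 5.62 in sham mice. Group C lay above all sham mice, with a ratio of 0.53 ± 0.21 (limma adjusted p = 0.798). ILMN_2647885 had 5.41, 5.56 and 5.49 (group A), 5.91, 5.92 and 5.99 (group B) and 6.18, 5.88 and 5.94 (group C), against 5.83, 5.99, 5.23, 5.09 and 5.09 in sham mice. Its groups overlapped, with 0.49 ± 0.21 in group B and 0.56 ± 0.21 in group C (adjusted p = 0.792 for group C). At an unadjusted p under 0.05, 3 of 12 lung member probes were higher in group B and 3 in group C, where 3.26% and 3.41% of all probes were higher, and in group C these were the 3 probes of Bcl2l1. They read the same transcript, NM_009743, so they are not independent. ILMN_2647885 was detected on 3 of 3 lung arrays in each of groups B and C, 1 of 3 of group A and 2 of 5 of sham. Nothing is read from these counts. Birc3 in lungs had 5.65, 6.08 and 5.97 in mice of group A, 6.51, 5.64 and 6.12 in mice of group B and 6.58, 6.70 and 5.67 in mice of group C, against 6.38, 5.89, 6.0, 6.44 and 6.45 in sham mice, all overlapping.

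**Figure D3:**
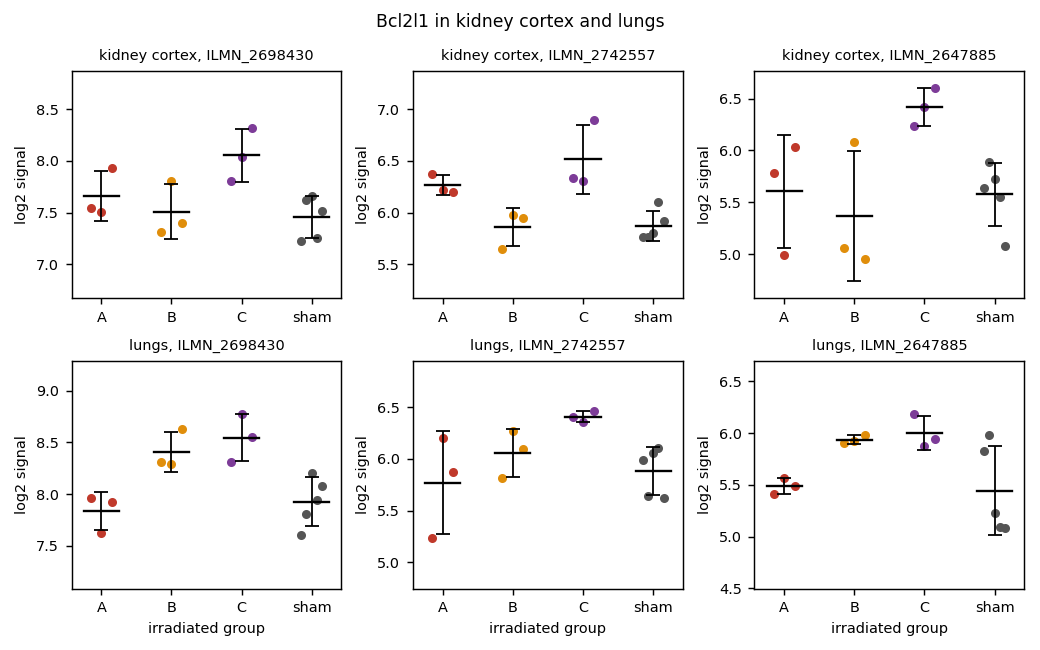
Log2 signal of the 3 Bcl2l1 probes in kidney cortex (top) and lungs (bottom), by irradiated group (A, B, C, 3 mice each) and sham (5 mice). Points are mice, bars are the mean and SD. Group C lies above sham in all panels but ILMN_2647885 in lungs, and none of these differences passed the adjusted p.

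In spleen 0 of 14 member probes were called in each setup, where 0.00822%, 0.0493% and 0.0658% of all probes were called in groups A, B and C. Birc3, read by ILMN_1247999, had 6.80, 6.20 and 6.56 (group A), 6.53, 6.13 and 6.07 (group B) and 5.69, 5.66 and 6.27 (group C), against 6.17, 5.90, 5.86, 5.75 and 6.02 in sham mice. Group A, whose spleens were out of field, lay above all sham mice, with 0.58 ± 0.19 (limma adjusted p = 0.365), and group C was lower than group A by a log2 difference of -0.64 (adjusted p = 0.277). Birc2 ILMN_1226186 had 8.72, 8.78 and 8.85 in mice of group A, 9.20, 8.49 and 8.27 in mice of group B and 8.06, 8.59 and 7.88 in mice of group C, against 8.22, 8.67, 8.47, 8.29 and 8.06 in sham mice. Here too group A lay above all sham mice, and group C minus group A was -0.60 ± 0.24 (adjusted p = 0.363). These 2 of 14 member probes of group A lay wholly above sham, where 4.43% of all probes did.

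Bcl2 in spleen was lower in group C than in group B in 3 probes at an unadjusted p under 0.05, where 5.57% of all probes were lower, and none of them passed the adjusted p. Of these, ILMN_2597567 passed the detection filter through 2 arrays of group B and 1 of sham, so nothing is read from that count. ILMN_1249021 had 9.13, 8.49 and 9.19 (group A), 9.10, 9.31 and 8.90 (group B) and 7.68, 8.40 and 8.85 (group C), against 8.95, 8.87, 8.91, 8.21 and 8.17 in sham mice. ILMN_1215796 had 5.64, 5.53 and 5.70 in mice of group A, 6.16, 5.96 and 5.59 in mice of group B and 4.64, 5.17 and 5.91 in mice of group C, against 5.73, 5.90, 5.23, 5.24 and 5.53 in sham mice. ILMN_2597567 had 5.42, 4.97 and 5.16 (group A), 5.72, 5.47 and 5.23 (group B) and 4.75, 4.83 and 4.87 (group C), against 5.43, 5.27, 5.41, 4.93 and 4.81 in sham mice. Every irradiated group overlapped the sham range in all 3 probes. Group C minus group B was -0.79 ± 0.30 for ILMN_1249021 and -0.66 ± 0.27 for ILMN_1215796 (limma adjusted p = 0.344 and 0.380). ILMN_1215796 lay near background, detected on 3 of 3 arrays of group B, 1 of 3 in each of groups A and C, and 2 of 5 of sham. No group C array detected ILMN_2597567. As the level those arrays could detect reached the group B mean, no fold and no test are given for it.

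The B lymphocyte markers followed these Bcl2 values only in part. Of 9 markers 7 were detected in spleen, and their summed signal was 20280, 13230 and 17740 in mice of group A, 14800, 14630 and 12750 in mice of group B and 3120, 9943 and 12640 in mice of group C, against 20620, 21970, 19030, 11480 and 10790 in sham mice. The mouse with the lowest sum, group C replicate 1, also had the lowest Bcl2 signal in ILMN_1249021, and the sham mice with the lowest sums had the lowest sham signals in that probe. Group B sums lay below those of sham replicates 1 to 3, while its ILMN_1249021 signals were 9.10, 9.31 and 8.90 against their 8.95, 8.87 and 8.91. In ILMN_1215796, sham replicate 3, with a sum of 19030, had the lowest sham signal, 5.23. Without group C replicate 1, group C minus group B was -0.48 for ILMN_1249021 and -0.36 for ILMN_1215796, and Birc3 group C minus group A was -0.55. The part of these markers in the result was not tested.

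**Figure D4:**
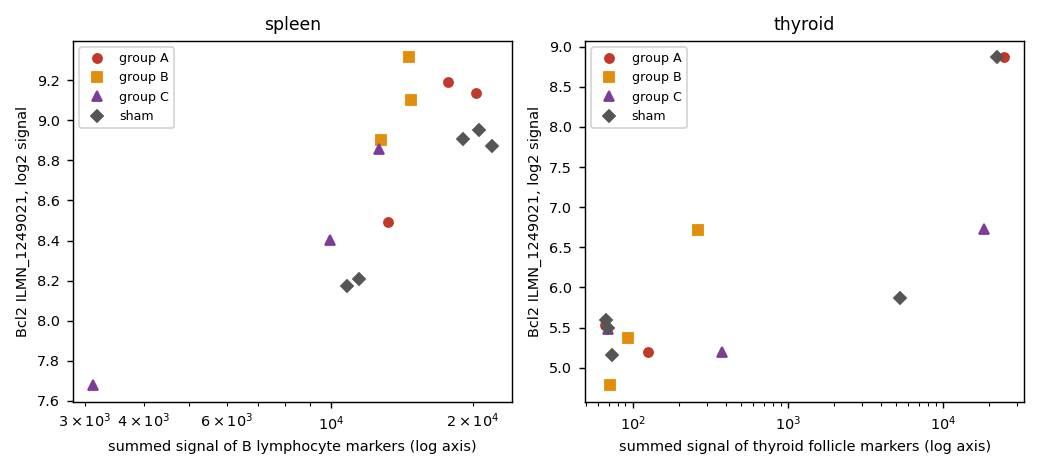
Log2 signal of Bcl2 probe ILMN_1249021 (y axis) against the summed signal of B lymphocyte markers in spleen (left) and of thyroid follicle markers in thyroid samples (right), both x axes on a log scale. Each point is a mouse of group A, B, C or sham, and the spleen of group C replicate 1 and the thyroid samples of group A replicate 1 and sham replicate 4 lie at the ends.

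In liver 0 of 4 member probes and in thyroid 0 of 10 were called in any setup, where 0%, 0% and 0.0188% of all liver probes and 0% of all thyroid probes were called in groups A, B and C. Liver ratios ran between -0.38 (Birc2 ILMN_1226186, group B) and 0.22 (Bcl2l1 ILMN_2698430, group C), with an unadjusted p under 0.05 in 0 of 12 tests in limma. In the thyroid samples Birc2 ILMN_2741621 had 4.98, 5.05 and 5.61 (group A), 5.70, 6.41 and 5.65 (group B) and 5.51, 5.61 and 5.60 (group C), against 5.71, 6.09, 6.31, 5.29 and 5.71 in sham mice. Group A overlapped sham, and 0 of its 3 arrays detected the probe. Against the lowest signal those arrays could detect, the group B mean was at least 1.26-fold and the sham mean at least 1.17-fold higher. These bounds on means leave out the spread between mice, and neither difference passed (limma adjusted p = 0.465 and 0.495). The group A samples also differed from each other in tissue markers, whose part was not tested. Birc2 ILMN_1226186 had all of group A below all of sham, with 6.06, 6.25 and 6.38 in group A against 6.57, 6.67, 6.52, 6.49 and 6.64 in sham mice (1.63% of all probes did so), and a ratio of -0.35 ± 0.25 (adjusted p = 0.538).

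The pair of thyroid samples with the most follicle signal had the most Bcl2, and the others followed that order only in part. ILMN_1249021 had 8.87, 5.54 and 5.20 in mice of group A, 5.37, 4.78 and 6.71 in mice of group B and 5.49, 5.20 and 6.73 in mice of group C, against 5.87, 5.50, 5.59, 8.87 and 5.16 in sham mice. Group A replicate 1 and sham replicate 4, with follicle sums of 24990 and 22540, were the highest, and the same 2 samples were highest in ILMN_1249366, ILMN_2706514 and ILMN_2682162. Group B replicate 3, with a follicle sum of 263.2, had 6.71 in ILMN_1249021, beside 6.73 in group C replicate 3 with a sum of 18420. The SE of a Bcl2 ratio in thyroid was 0.94 for ILMN_1249021, against 0.12 in medulla, so a change of the size seen in medulla was not detectable there.

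Between irradiated groups, 0 of 189 member tests passed the threshold in limma, where 0.0101% of all tests did, and 22 (11.6%) had an unadjusted p under 0.05, where 8.52% of all tests did. Against sham mice 27 (14.3%) had an unadjusted p under 0.05, 23 of them higher and 4 lower, where 10.3% of all tests did. Comparisons of groups A, B and C with sham share the same 5 sham mice, so their ratios in a tissue are not independent of each other.

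Levels of the members in the tissues of the 5 sham mice were compared on the scale normalized over all tissues. Thyroid here means the samples so labelled, most of which went against that label in their markers. Of 187 tests of member probes between tissues, 85 (45.5%) passed (adjusted p under 0.01 and a log2 difference of at least 0.58), where 54.3% of 205626 tests of all probes did, so that the share of the members was not above the background. Leaving out the pairs with the thyroid, 59 of 128 passed (46.1%), where 52.6% of all tests did. The thyroid samples stayed in that fit, which pooled the spread over all tissues. By gene, 29 of 74 tests passed for Bcl2, 18 of 44 for Bcl2l1, 10 of 15 for Mcl1, 22 of 45 for Birc2 and 6 of 9 for Birc3. A pair was tested when the probe passed the detection filter in either tissue. All 6 Birc3 calls set lungs or spleen against a tissue where it was not tested. With the bound set by the lowest detectable signal, the Birc3 fold was at least 0.83 (lungs over thyroid) to 1.46 (spleen over cortex). For Bcl2 ILMN_1215796, with 5 calls in spleen, it was at least 0.70 (over liver) to 1.26 (over lungs). Nothing is read from these counts by gene.

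Spleen stood at the top of the order for most member probes. The exceptions were Birc2 ILMN_2741621, with mean log2 signals of 6.38 ± 0.46 in thyroid, 5.97 ± 0.28 in medulla and 5.89 ± 0.25 in spleen, and Bcl2l1 ILMN_2742557, with 5.95 ± 0.27 in medulla and 5.70 ± 0.28 in spleen (SD, n = 5 each), and neither difference from spleen passed the threshold. Mcl1 had a mean log2 signal of 12.62 ± 0.31 in spleen, 12.47 ± 0.17 in lungs, 11.83 ± 0.16 in thyroid, 11.35 ± 0.19 in kidney cortex, 11.01 ± 0.16 in liver and 10.95 ± 0.17 in kidney medulla (SD, n = 5 each). Spleen and lungs did not differ by the threshold, nor did thyroid and cortex, nor cortex, liver and medulla, while spleen and lungs each exceeded the other 4 tissues. Bcl2l1 ILMN_2698430 had 8.02 ± 0.35 in spleen, 7.31 ± 0.25 in lungs, 7.21 ± 0.20 in medulla, 7.12 ± 0.20 in cortex, 6.54 ± 0.26 in liver and 6.05 ± 0.31 in thyroid. Spleen exceeded all 5 others, and lungs, medulla and cortex did not differ by the threshold.

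Bcl2 ILMN_1249021 had 8.55 ± 0.40 in spleen, 7.61 ± 0.18 in cortex, 7.59 ± 0.31 in lungs, 7.02 ± 0.11 in medulla, 6.73 ± 1.57 in thyroid and 5.64 ± 0.49 in liver, where it was detected on 1 sham array. Spleen exceeded medulla, thyroid and liver past the threshold, and its differences from cortex and lungs had limma adjusted p of 0.0423 and 0.0410. The fit pooled the spread over all 6 tissues, so that each pair of this probe had an SE of 0.42. That spread included the thyroid samples, whose part in these differences was not tested. For the Bcl2 probes that no sham liver array detected, spleen was at least 3.65-fold above liver in ILMN_1249366, 2.37-fold in ILMN_2706514 and 2.68-fold in ILMN_2682162. These bounds set the spleen mean against the lowest signal that the liver arrays could detect. Kidney cortex was at least 1.62-fold and medulla at least 1.56-fold above liver in ILMN_1249366.

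Birc2 gave different orders by probe. ILMN_2990616 had 10.89 ± 0.30 in spleen, 10.20 ± 0.16 in lungs, 9.88 ± 0.20 in thyroid, 9.67 ± 0.15 in medulla, 9.54 ± 0.12 in cortex and 9.33 ± 0.40 in liver, with spleen above all 5 others. ILMN_1226186 had 8.27 ± 0.24 in spleen, 7.90 ± 0.11 in lungs, 7.52 ± 0.41 in cortex, 7.31 ± 0.34 in liver, 7.22 ± 0.08 in thyroid and 6.54 ± 0.20 in medulla (SD, n = 5 each). The sham medulla thus held the lowest ILMN_1226186 level and was below all 5 other tissues past the threshold, by a log2 difference of 0.98 in cortex minus medulla. On this scale the mice had medulla values of 7.83, 7.73 and 7.76 (group A), 7.30, 7.45 and 7.52 (group B) and 7.84, 7.95 and 7.17 (group C), against 6.39, 6.71, 6.47, 6.35 and 6.79 in sham mice. The irradiated medulla lay within the range of the sham cortex, which ran from 7.03 to 7.98. Birc3 had 5.98 ± 0.15 in spleen and 5.67 ± 0.21 in lungs, which did not differ by the threshold.

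**Figure D5:**
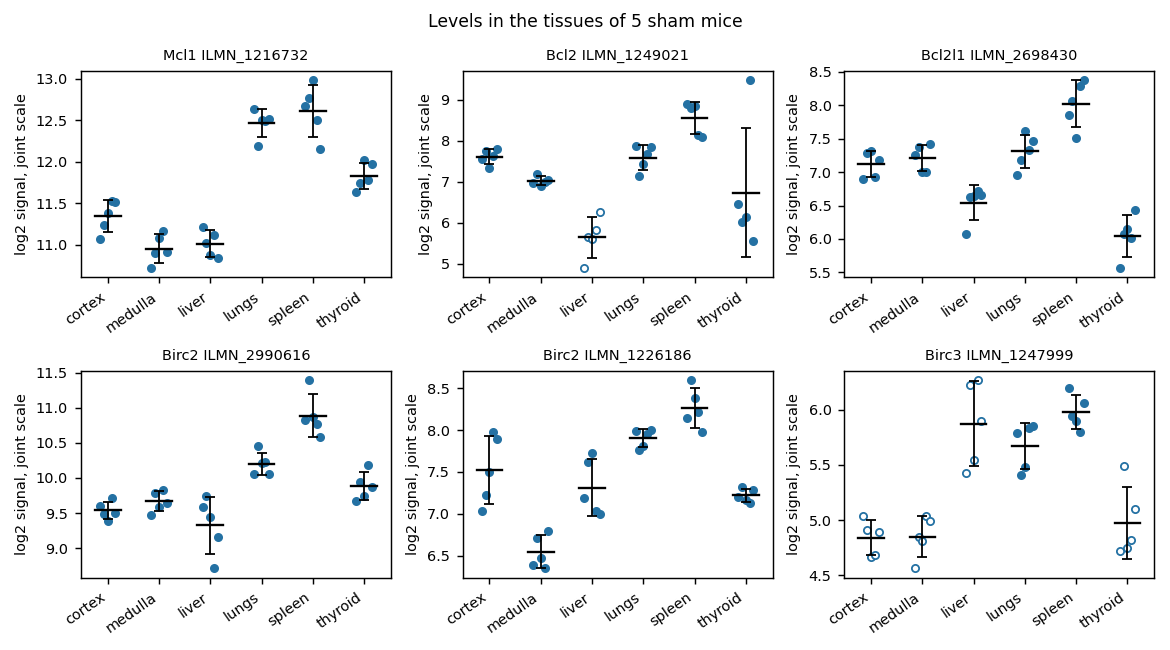
Log2 signal, normalized over all tissues, of 6 member probes in the tissues of the 5 sham mice. Points are mice (open where the probe was not tested in that tissue), bars are the mean and SD. The mean is highest in spleen in each panel, and Birc2 ILMN_1226186 is lowest in kidney medulla. Most samples labelled thyroid went against that label in their markers.

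The genes around the members in the pathway were taken from 9 lists, of which 53 genes had a tested probe, and 6 of 1146 tests against sham passed (0.524%, beside 0.194% over all probes), 5 higher and 1 lower, all in kidney medulla. There 3 of 60 probes were called in group A and 3 in group B, where 1.39% and 1.78% of all probes were. Unadjusted p under 0.05 was found in 131 (11.4%), beside 10.3% over all probes. Among the IAP antagonists and proteins released from mitochondria (5 of 8 genes tested, 132 tests, 4 called higher), Cycs, which encodes cytochrome c, rose in probe ILMN_3155380 by 1.61 ± 0.22 in group A and 1.53 ± 0.22 in group B (SE, limma adjusted p = 0.00361 and 0.00361), and had 1.18 in group C (adjusted p = 0.0196). Its other probe ILMN_3076459 had 0.19, 0.33 and -0.11. Aifm1, the apoptosis-inducing factor that also serves the respiratory chain, rose in ILMN_2881272 by 1.24 ± 0.17 in group A and 1.28 ± 0.17 in group B (adjusted p = 0.00318 and 0.00188), with 0.92 in group C (adjusted p = 0.0180). Its other probe ILMN_2881263 had -0.08, -0.09 and -0.27, so that in Bcl2, Birc2, Cycs and Aifm1 alike 1 probe was called and another of the same gene was not.

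Among regulators of Mcl1 turnover (6 of 6 genes tested, 126 tests, 1 called higher), Huwe1, a ubiquitin ligase that marks Mcl1 for degradation, rose in group B by 1.28 ± 0.23 (limma adjusted p = 0.00648) and had 1.0 in group A and 0.83 in group C (adjusted p = 0.0199 and 0.0558). Among BH3-only death promoters (8 of 10 tested, 156 tests, 1 called lower), Bik fell in group A by 0.69 on the log2 scale (adjusted p = 0.00613), with -0.26 in group B and -0.37 in group C. No call was made by limma in the other 6 lists. Unadjusted p under 0.05 was found there in 6 of 135 tests of other anti-apoptotic Bcl2 family genes, 11 of 39 of other inhibitors of apoptosis, 3 of 27 of death effectors, 18 of 147 of caspases, 26 of 246 of death receptors and adaptors and 5 of 156 of Traf and NF-kappaB genes. Of the 11 tests of other inhibitors of apoptosis, 9 were lower. They were 3 of 5 probes each in lungs of group B, lungs of group C and spleen of group B, where 3 genes were tested. Such tests share sham mice and probes of a gene, so nothing is read from that count. Birc5 (survivin, which also serves cell division) had -1.53 in lungs of group B, with a limma adjusted p of 0.0289 that missed the threshold.

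The lowest p in each remaining list fell on genes that did not pass. Bag3, a cochaperone, had 0.51 in spleen of group C, Bcl2l2 (Bcl-w) had 0.26 in medulla of group C, and Bcl2l12 had -0.58 in thyroid of group A (limma adjusted p = 0.213, 0.113 and 0.495). Naip2 had 0.46 in spleen of group B and Naip5 -0.31 in spleen of group A. Bok had 0.57 in spleen of group B and Bak1 0.41 in spleen of group A. Among caspases, Casp1 had -0.75 in spleen of group C, Casp8 -0.79 in spleen of group A and Casp6 -0.52 in cortex of group B. The necroptosis effector Mlkl had 0.44 in spleen of group B, the adaptor Fadd 0.42 in medulla of group B and the death receptor Fas 0.39 in medulla of group C (adjusted p = 0.322, 0.0928 and 0.0944). Nfkbia, which holds NF-kappaB in the cytoplasm, had 0.56 in medulla of group C (adjusted p = 0.0686), and in spleen of group C Cd40 had -1.25 and Traf1 -0.96. The spleen with the lowest B lymphocyte sum was in that group, whose sums overlapped those of sham mice. The part of these markers in the Cd40 and Traf1 values was not tested.

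The genes whose profile over the 84 samples was most like a member were found by Pearson correlation with the member's brightest probe on the scale normalized over all tissues, as a description with no test, over samples that share 6 tissues and 14 mice. For Bcl2 they were Bex3 (r = 0.882), Iqcb1 (0.881) and Snn (0.869), and for Bcl2l1 Ankrd54 (0.835), Vstm4 (0.831) and Senp7 (0.831). For Mcl1 they were St8sia4 (0.933), Mical1 (0.930) and Fxyd5 (0.927), and for Birc2 Kdm6a (0.916), Luc7l3 (0.911) and Cep120 (0.901). For Birc3 they were Ctss (0.819), Lcp2 (0.810) and Uba7 (0.810). Without the thyroid samples, 70 samples gave 3 of the same 15 genes.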

How the data were processed

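Signals and detection p-values of 88 arrays, 84 samples of mouse and tissue, were taken as the authors deposited them, with no normalization. Intensity values were deposited per probe, and the detection p-value in the deposited table states how far a probe stands above negative controls. The authors' second set of intensities, quantile-normalized in BASE, served as an alternative, and all 88 of its columns matched their own array by rank correlation. Signals were background-corrected with limma's nec (offset 16), quantile-normalized within a tissue (over all tissues for levels and tissue-specific responses) and taken to log2. Repeat arrays (3 each) of 1 group A liver and 1 sham thyroid were averaged. In R 4.3.3, limma 3.58.1 (with statmod 1.5.0) fitted linear models with empirical Bayes moderation over all 14 mice of a tissue, for the probes detected on at least 3 of its arrays, and p was adjusted over all of these with the Benjamini-Hochberg procedure. Calls required both a log2 ratio of 0.58 or more in size and an adjusted p below 0.01, thresholds that the study's methods state without naming a test. The procedure was tested on simulated data.

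Values of every sample are given for called probes and then by smallest unadjusted p up to 20 pairs of probe and tissue. Of each pathway list the called genes, otherwise the 3 with the smallest p, are named, and 3 genes per member by likeness of profile. The members, the lists and the markers were chosen with earlier results of these data known. Within a tissue, replicates are separate mice, and all tissues came from the same 14 mice. The main fits across tissues treated their samples as independent, since labels do not state that a replicate number marks the same animal in every tissue. Slide and scan batches are not given in the sources used here. Where a group detected a probe on no array, a bound takes, per array, the higher of the lowest detected signal and the probe's own. Promoter sequences are from RefSeq, and probe sequences were not analysed here. Alternatives tried were the authors' values, no background correction, normalization over all tissues, no detection filter, a fit of the compared groups alone, the replicate number as a block, an intensity trend with robust variance, the first of repeat arrays, other thresholds, and leaving out each mouse.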

Additional observations from a re-analysis of the deposited data

Results flagged for a closer look

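In the thyroid samples of sham mice, replicate 4 stood apart from the other 4 in 4 Bcl2 probes. It had 8.87 in ILMN_1249021 (others 5.16 to 5.87), 8.54 in ILMN_1249366 (others 4.79 to 5.38), 8.09 in ILMN_2706514 (others 4.53 to 4.81) and 6.47 in ILMN_2682162 (others 4.67 to 5.13), and its follicle marker sum was 22540. In liver, sham replicate 1 had 5.55 in Bcl2l1 ILMN_2698430, where the others had 6.07 to 6.16. These were 5 of 63 sham groups examined (7.94%), where chance gives about 1 in 20. The response of Birc2 ILMN_1226186 in kidney medulla differed from that in the other 4 non-thyroid tissues by 1.31 in group A and 1.19 in group C (limma adjusted p = 0.000166 and 0.00264), a difference between tissues that was itself tested.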

How the results depend on the processing

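The 6 calls against sham, all in kidney medulla, were also 6 with normalization over all tissues, with an intensity trend and robust variance, and with the first of repeat arrays. They were 4 without the detection filter, 5 (4 shared) with the compared groups alone in the fit, 2 with the authors' normalized values and 2 without background correction. The ratios in the authors' values were 0.50, 0.71 and 0.58 for Bcl2 ILMN_1249021 and 0.75, 0.51 and 0.67 for Birc2 ILMN_1226186 in groups A, B and C. Samples shared only a replicate number, with mean correlations of same-numbered samples between -0.07 and 0.06 per tissue, and with the replicate block 0 calls were left (limma adjusted p of the 6 between 0.0201 and 0.0511). At an adjusted p under 0.05 there were 7 calls and under 0.1 there were 8. Leaving out 1 mouse gave 1 to 8 calls. The call added with the compared groups alone, at an adjusted p under 0.05 and without group C replicate 2, and both calls added without group C replicate 3, were of Bcl2 ILMN_1215796, which no sham array detected. For Bcl2 the group A call ended in 5 of 14 such fits, those without any mouse of group A, sham replicate 1 or sham replicate 4 (adjusted p 0.0014 to 0.0286), the group B call in 1 (without group B replicate 2, 0.0145), and the group C call in 13, all but that without group C replicate 3 (0.0009 to 0.0295). For Birc2 the group A call ended without any mouse of group A (up to 0.0227), the group B call in 11, all but those without a group C mouse (up to 0.0454), and the group C call in 13, all but that without group C replicate 3 (0.0001 to 0.0439). No direction reversed.

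Between irradiated groups the count of calls was 0 under every alternative, and 0 to 0 with 1 mouse left out. The 85 tissue-level calls became 46 with the authors' values, 40 without background correction, 83 with all mice in the fit, 85 with the replicate block, and 71 to 99 with 1 sham mouse left out. The 2 tissue-specific responses were 2 with the authors' values and without background correction, 3 with the replicate block and 1 to 3 with 1 mouse left out. Of the 15 genes most like a member, 3 remained without the thyroid samples. The cause of these shifts was not tested. Probes near background, such as Bcl2 ILMN_1215796, Bcl2l1 ILMN_2647885 and Birc3, have too little signal to show small differences.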
